A study of Mus musculus with 9 samples.

Results

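Immediate early genes are switched on within minutes of a stimulus, by transcription factors that are already present in the cell, so that no new protein has to be made first. In most cells MAP kinase and calcium signals reach serum response factor and its ternary complex partners or CREB, which sit on the promoters of these genes, and many of the proteins that are made (FOS, JUN, EGR1, ATF3, MYC) are transcription factors that act on a second wave of genes. In skeletal muscle they respond to exercise, to damage and to tissue handling, and they are also used by infiltrating macrophages and by activated muscle stem cells. The members here were Fos, Fosb, Jun, Junb, Egr1, Atf3, Ier2, Ier3, Dusp1 and Myc, found by gene name in the deposited table: 10 of its 54532 genes. All 10 were among the 14233 genes that passed the filters on low values and were tested.

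The 9 libraries came from the tibialis anterior, a fast muscle of the lower hind limb, collected after injury from 3 groups of mice, with 3 libraries each. Young wild-type mice were 4 to 6 months old and old wild-type mice 24 months old. The third group was old P311-/- mice, whose age in months was not given and which lack P311, the product of Nrep. Old P311-/- and young wild-type mice differ in both age and genotype, so a difference between them cannot be assigned to either alone. All groups were injured, and the sources used here do not give the kind of injury, the time after it, the strain, the sex or the way the deletion was made. No uninjured muscle was analysed here, so no level here is an induction by injury. The labels do not say whether the libraries of a group came from separate animals. P-values here set a difference between groups against the spread of libraries within groups, and that spread may be technical.

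Recovered reads ran from 14222204 to 31910890 per library, and the sum of 10 mature muscle fibre markers was 45613 to 63845 FPKM, a level per gene length and library size. Nrep stood at 63.9 to 86.3 FPKM in the 6 wild-type libraries and at 6.37 to 14.8 FPKM in the 3 P311-/- libraries, which fits the labels. P311-/- replicate 1 stood apart from the other two of its group: on the first principal component, which held 30.2% of the variance over the genes tested, it was at -11.2 and P311-/- replicates 2 and 3 were at 52.3 and 37.9. The 6 wild-type libraries were at -36.6 to 12.3, so replicate 1 lay within their range and replicates 2 and 3 lay above it. Fold changes of members and counts of calls that involve the P311-/- group are therefore given with and without P311-/- replicate 1. The fit without it has only P311-/- replicates 2 and 3, and the library was chosen by its values in these same data. Calls that appear only in that fit are therefore descriptions.

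The DNA upstream of 4 members is shown because they follow the main patterns described here: Jun was the member that passed the test between groups, Ier3 had levels in a similar order, and Fos and Fosb were low in P311-/- replicates 2 and 3. Each sequence is the 250 bases before the RefSeq transcription start (build GRCm38.p6), 5′ to 3′ on the strand of the gene, with every match to a searched motif in capitals. Of the 10 members, 7 were in the RefSeq promoter table used (Fos, Fosb, Jun, Junb, Atf3, Ier3 and Dusp1). Egr1, Ier2 and Myc were not matched.
Jun, chr4:95052223-95052472, minus strand: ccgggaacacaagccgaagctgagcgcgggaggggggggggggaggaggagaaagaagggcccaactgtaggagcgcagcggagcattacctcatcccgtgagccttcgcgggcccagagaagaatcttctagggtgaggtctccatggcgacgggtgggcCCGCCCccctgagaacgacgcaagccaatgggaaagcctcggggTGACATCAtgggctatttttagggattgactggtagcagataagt
Ier3, chr17:35821463-35821712, plus strand: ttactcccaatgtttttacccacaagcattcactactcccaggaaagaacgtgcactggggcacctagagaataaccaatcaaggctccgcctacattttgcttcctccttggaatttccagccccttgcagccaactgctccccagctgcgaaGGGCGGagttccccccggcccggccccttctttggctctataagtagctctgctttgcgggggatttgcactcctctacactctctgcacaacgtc
Fos, chr12:85473640-85473889, plus strand: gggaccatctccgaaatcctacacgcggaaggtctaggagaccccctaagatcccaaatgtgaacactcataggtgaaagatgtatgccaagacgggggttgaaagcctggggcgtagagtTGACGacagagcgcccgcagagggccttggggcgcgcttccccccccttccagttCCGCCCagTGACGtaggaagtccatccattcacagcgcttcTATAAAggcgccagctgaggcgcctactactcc
Fosb, chr7:19310046-19310295, minus strand: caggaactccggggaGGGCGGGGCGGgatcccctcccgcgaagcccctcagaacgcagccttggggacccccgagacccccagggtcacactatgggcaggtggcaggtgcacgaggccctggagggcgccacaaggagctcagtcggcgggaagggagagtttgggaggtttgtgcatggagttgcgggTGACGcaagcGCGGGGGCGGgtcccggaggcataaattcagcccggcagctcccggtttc

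In the Jun sequence the capitals mark TGACATCA, 45 to 38 bases before the start, and a GC box read on the opposite strand, 89 to 84 bases before it. In the Fos sequence they mark a TATA box 33 to 28 bases before the start, TGACG at 66 to 62 and 129 to 125 bases, and a GC box at 74 to 69 bases. In the Fosb sequence they mark GCGGGGGCG, the 9-base recognition pattern of EGR proteins, at 50 to 42 bases, TGACG at 60 to 56 bases, and 3 GC boxes, 1 of which overlaps the EGR match. The Ier3 sequence had a single GC box, 96 to 91 bases before the start. Motifs were searched on both strands, and TGACNTCA and TGACG were added after the sequences had been read.

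Among the 7 matched members, TGACNTCA was found in 2 (7.49% of all 32851 promoters of this length held it), TGACGTCA in 1 (1.55%), and TGACG in 5 (17.8%). These 3 patterns overlap one another where TGACGTCA occurs. TGANTCA was found in 0 (6.75%), GCGNGGGCG in 1 (4.70%), TATAAA in 1 (12.4%), CACGTG in 1 (6.02%), GGGCGG in 6 (32.7%) and the CArG box bound by serum response factor in 0 (1.47%). A match is a description of the letters in this window, and elements farther upstream lie outside it. The RefSeq start used for Atf3 lay 34706 bases from the deposited start of the gene, against 0 to 47 bases for the other matched members. Atf3 counts among those with TGACG and with GGGCGG. The 7 windows had 54.4 to 68.8% GC, and the shares over all promoters were not matched for GC content.

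Jun encodes c-JUN, the main JUN partner of the AP-1 dimer (ENSMUSG00000052684, GRCm38 chr4:95049034-95052222, minus strand). Its level was 22.9, 22.8 and 22.1 FPKM in young wild-type replicates 1 to 3, 31.6, 32.7 and 36.8 FPKM in old wild type, and 47.1, 39.0 and 42.5 FPKM in old P311-/-. The 3 groups did not overlap: all young libraries were below all old wild-type libraries, and these were below all P311-/- libraries. The means were 22.6 ± 0.411, 33.7 ± 2.75 and 42.9 ± 4.08 FPKM (SD, n = 3 each). In bulk muscle RNA, a change in the number of cells of a type and a change in RNA per cell cannot be told apart.

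Jun rose from young to old wild type by 0.57 on the log2 scale (SE 0.12, 95% interval 0.31 to 0.83, limma adjusted p = 0.0337), a ratio of mean FPKM of 1.49. Between young wild type and old P311-/- it rose by 0.92 (SE 0.12, 0.65 to 1.18, adjusted p = 0.0178), a ratio of 1.90. Between old wild type and old P311-/- the difference was 0.34 (SE 0.12, 0.08 to 0.60) and did not pass (adjusted p = 0.260). With P311-/- replicate 1 left out, these values were 0.57 (adjusted p = 0.0163), 0.85 (0.00315) and 0.27 (0.123). Of the 14233 genes tested, 27 (0.190%) had the same order of groups with no overlap between neighbours, and Jun was the only member among them. With P311-/- replicate 1 left out it was 346 genes (2.43%), again with Jun as the only member. This order was taken from the values of Jun and no other order was counted, so these shares are descriptions and test nothing.

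The direction of the Jun differences was the same in each of 20 alternative settings, while the calls were not. For old against young wild type the call was lost without young replicate 1, 2 or 3 (adjusted p = 0.0704, 0.110 and 0.124) and without old wild-type replicate 2 or 3 (0.120 and 0.113). It was also lost with total-count scaling, where the log2 difference was 0.44 (adjusted p = 0.136) and the median of all genes tested moved to -0.12, so that Jun lay 0.56 above that median. No filter on low values (0.0763), removal of the trend with length and GC content (0.0700) and limma without trend (0.0525) also ended that call. For P311-/- against young, the call was lost without young replicate 1, 2 or 3 (0.0654, 0.0979 and 0.101), old wild-type replicate 2 (0.0561) or P311-/- replicate 3 (0.112), with total-count scaling (0.0876) and in a fit of only those 6 libraries (0.0888). Junos, a non-coding RNA on the opposite strand that overlaps Jun by 689 bases, had 1.23 to 3.16 FPKM. Reads within those bases cannot be assigned to Junos or to Jun if counting ignored strand.

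**Figure D1:**
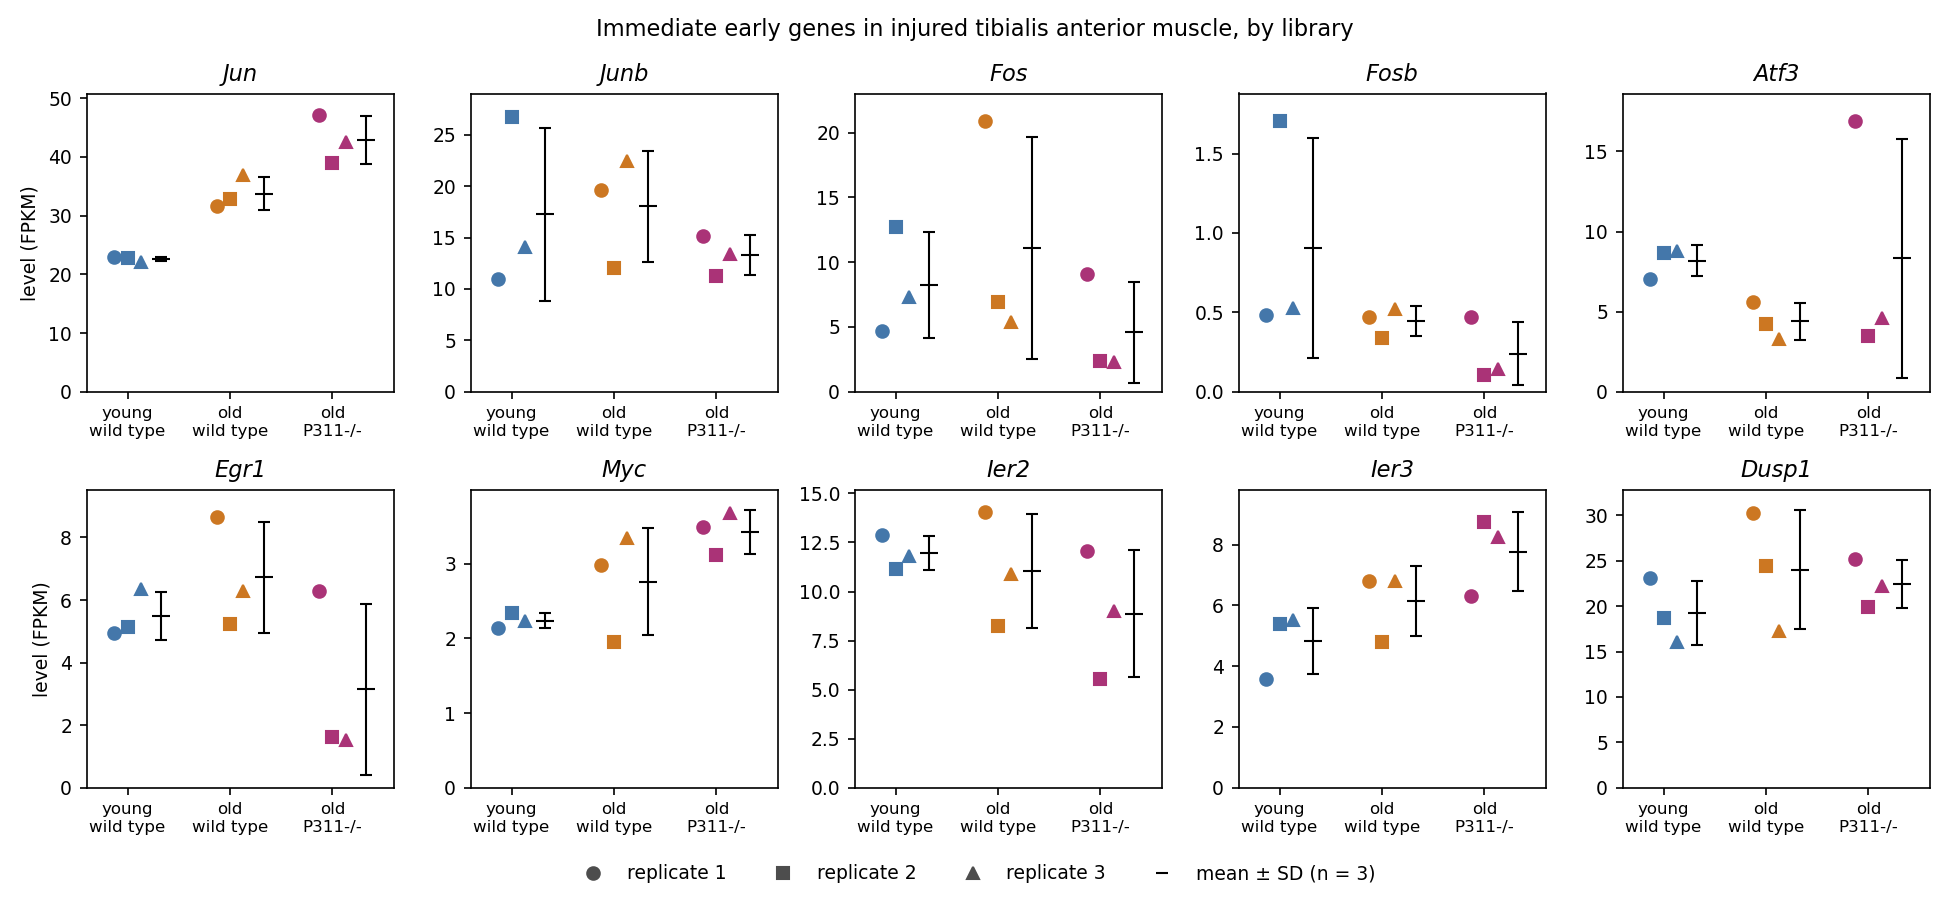
Level in FPKM of the 10 immediate early genes, 1 panel each with the vertical axis from 0, by group, where points are libraries (shape gives the replicate) and bars are the mean and SD of 3. Jun steps from 22.1 to 22.9 FPKM in young muscle through 31.6 to 36.8 FPKM in old wild type to 39.0 to 47.1 FPKM in old P311-/-, while P311-/- replicate 1 lies far above the other P311-/- libraries for Fos, Fosb, Egr1 and Atf3.

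Junb encodes JUNB, a JUN family protein that is a weaker activator than c-JUN (ENSMUSG00000052837, GRCm38 chr8:84974484-84978718, minus strand). Its level was 10.9, 26.7 and 14.1 FPKM in young wild type, 19.6, 12.0 and 22.5 FPKM in old wild type, and 15.1, 11.3 and 13.4 FPKM in old P311-/-. The groups overlapped, and the highest and the lowest of the 9 values were both young libraries. The log2 difference was 0.12 for old against young wild type (adjusted p = 0.840), -0.40 for P311-/- against old wild type (0.549) and -0.28 for P311-/- against young (0.642). Leaving out P311-/- replicate 1 gave -0.50 (0.409) and -0.38 (0.519) for the P311-/- group. Junb overlaps Prdx2 on the opposite strand by 351 bases, and Prdx2 was the more abundant of the pair at a mean of 55.7 FPKM.

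Fos encodes c-FOS, which pairs with JUN proteins and cannot form a stable dimer with itself (ENSMUSG00000021250, GRCm38 chr12:85473890-85477273, plus strand). Its level was 4.72, 12.7 and 7.34 FPKM in young wild type, 20.9, 6.90 and 5.38 FPKM in old wild type, and 9.06, 2.35 and 2.31 FPKM in old P311-/-. The highest library was 9.06-fold above the lowest, and within each group 1 library stood above the others. P311-/- replicates 2 and 3 were below all 6 wild-type libraries, and replicate 1 was within their range. The log2 difference was 0.27 for old against young wild type (adjusted p = 0.816), -1.30 for P311-/- against old wild type (SE 0.63, 0.338) and -1.03 for P311-/- against young (0.366). Leaving out P311-/- replicate 1 gave -1.94 (adjusted p = 0.0742) and -1.67 (0.0941) in these comparisons, which also did not pass. The sign for old against young wild type turned without young replicate 1 (-0.07) and without old wild-type replicate 1 (-0.32).

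Fosb encodes FOSB, a FOS relative with a truncated splice form that persists after repeated stimuli in neurons (ENSMUSG00000003545, GRCm38 chr7:19302696-19310051, minus strand). It was the least abundant member, at 0.487, 1.71 and 0.527 FPKM in young wild type, 0.473, 0.338 and 0.524 FPKM in old wild type, and 0.472, 0.108 and 0.143 FPKM in old P311-/-. These values rested on 12 to 178 reads per library. All P311-/- libraries were below all young libraries, and the margin was set by P311-/- replicate 1, at 0.472 against 0.487 FPKM. The log2 difference from young was -1.51 (adjusted p = 0.165) and did not pass. It was -1.96 without P311-/- replicate 1 and passed there (adjusted p = 0.0324). The difference was -0.69 for old against young wild type (0.440) and -0.81 for P311-/- against old wild type (0.460; -1.26 and 0.140 without P311-/- replicate 1).

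Atf3 encodes ATF3, a stress-induced member of the ATF family that can pair with JUN proteins and often represses inflammatory genes (ENSMUSG00000026628, GRCm38 chr1:191170296-191218039, minus strand). Its level was 7.05, 8.69 and 8.76 FPKM in young wild type, 5.59, 4.26 and 3.32 FPKM in old wild type, and 16.9, 3.48 and 4.59 FPKM in old P311-/-. Old wild-type libraries were all below the young ones, and P311-/- replicate 1 was the highest of the 9. The log2 difference for old against young wild type was -0.91 (SE 0.48, adjusted p = 0.262) in the fit of all libraries, which shares 1 estimate of the spread. It was the same size with a smaller error without P311-/- replicate 1 (SE 0.20, adjusted p = 0.0257) and passed there, as it did in the fit of these 6 libraries alone (0.0303). P311-/- against old wild type was 0.58 (adjusted p = 0.558) with that library and -0.10 (0.792) without it. Against young it was -0.32 (0.732) with it and -1.01 (0.0160) without it, so a single library set the call and, against old wild type, the direction.

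Egr1 encodes EGR1, a zinc-finger factor that binds GC-rich promoter sites (ENSMUSG00000038418, GRCm38 chr18:34859823-34864984, plus strand). Its level was 4.93, 5.15 and 6.36 FPKM in young wild type, 8.67, 5.22 and 6.28 FPKM in old wild type, and 6.30, 1.61 and 1.52 FPKM in old P311-/-. P311-/- replicates 2 and 3 were below every wild-type library, and replicate 1 was above 4 of the 6. With all libraries the log2 difference was -1.36 against old wild type (SE 0.46, adjusted p = 0.260) and -1.09 against young (0.211), and neither passed. Once P311-/- replicate 1 was left out, the differences were -2.00 against old wild type (SE 0.21, adjusted p = 0.00292) and -1.74 against young (0.00263), both past the threshold. Leaving out P311-/- replicate 2 or 3 instead gave -1.05 (limma adjusted p = 0.417) and -1.01 (0.732) against old wild type, which did not pass. Old against young wild type was 0.27 (0.747). Egr1 lies on the chromosome of the deleted gene, 1.40 Mb from Nrep.

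Myc encodes c-MYC, a factor for growth and ribosome production that binds CACGTG with its partner MAX (ENSMUSG00000022346, GRCm38 chr15:61985391-61990374, plus strand). Its level was 2.14, 2.33 and 2.23 FPKM in young wild type, 2.99, 1.95 and 3.34 FPKM in old wild type, and 3.48, 3.11 and 3.68 FPKM in old P311-/-. All P311-/- libraries were above all young ones, with old wild type spread across both. The log2 difference between P311-/- and young was 0.59 (adjusted p = 0.138; 0.58 and 0.0951 without P311-/- replicate 1), and it did not pass. Old against young wild type gave 0.26 (0.417), and P311-/- against old wild type 0.33 (0.400; 0.32 and 0.355 without P311-/- replicate 1).

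Ier3 encodes a small protein that limits cell death under inflammatory signals (ENSMUSG00000003541, GRCm38 chr17:35821684-35822923, plus strand). Its level was 3.56, 5.40 and 5.50 FPKM in young wild type, 6.81, 4.80 and 6.81 FPKM in old wild type, and 6.29, 8.75 and 8.25 FPKM in old P311-/-. P311-/- libraries were all above young libraries and overlapped old wild type in replicate 1. The log2 difference from young was 0.69 (adjusted p = 0.135), and 0.83 (0.0307) without P311-/- replicate 1, where it passed. It was 0.35 (0.325) for old against young wild type, and 0.34 (0.444) for P311-/- against old wild type (0.48 and 0.174 without P311-/- replicate 1).

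Ier2 encodes a nuclear protein of the early response (ENSMUSG00000053560, GRCm38 chr8:84661331-84662852, minus strand). Its level was 12.9, 11.2 and 11.8 FPKM in young wild type, 14.1, 8.25 and 10.9 FPKM in old wild type, and 12.0, 5.55 and 9.02 FPKM in old P311-/-. The groups overlapped, and no comparison passed: -0.14 (adjusted p = 0.770), -0.35 (0.531) and -0.49 (0.314) on the log2 scale for old against young wild type, P311-/- against old wild type and P311-/- against young. The latter pair were -0.60 (0.136) and -0.75 (0.0657) without P311-/- replicate 1.

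Dusp1 encodes a phosphatase that switches off MAP kinases and so ends the signal that induces these genes (ENSMUSG00000024190, GRCm38 chr17:26505590-26508519, minus strand). Its level was 23.1, 18.7 and 16.0 FPKM in young wild type, 30.3, 24.4 and 17.3 FPKM in old wild type, and 25.2, 19.9 and 22.2 FPKM in old P311-/-. The groups overlapped, with log2 differences of 0.30 (adjusted p = 0.407), -0.07 (0.896) and 0.23 (0.553) in the same order of comparisons. The differences for P311-/- were -0.15 (0.693) and 0.14 (0.705) without its replicate 1.

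Per length, Jun (42.9 FPKM), Dusp1 (22.4) and Junb (13.3) had the highest means in old P311-/- muscle, and Fosb the lowest (0.241). In young muscle the order began with Jun (22.6 ± 0.411 FPKM) and Dusp1 (19.3 ± 3.55), whose libraries overlapped, then Junb (17.2 ± 8.37) and Ier2 (12.0 ± 0.867), which also overlapped. Egr1 (5.48 ± 0.772) and Ier3 (4.82 ± 1.09) overlapped in young muscle too, and Myc (2.24 ± 0.0978) lay below all other members but Fosb (0.906 ± 0.693).

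**Figure D2:**
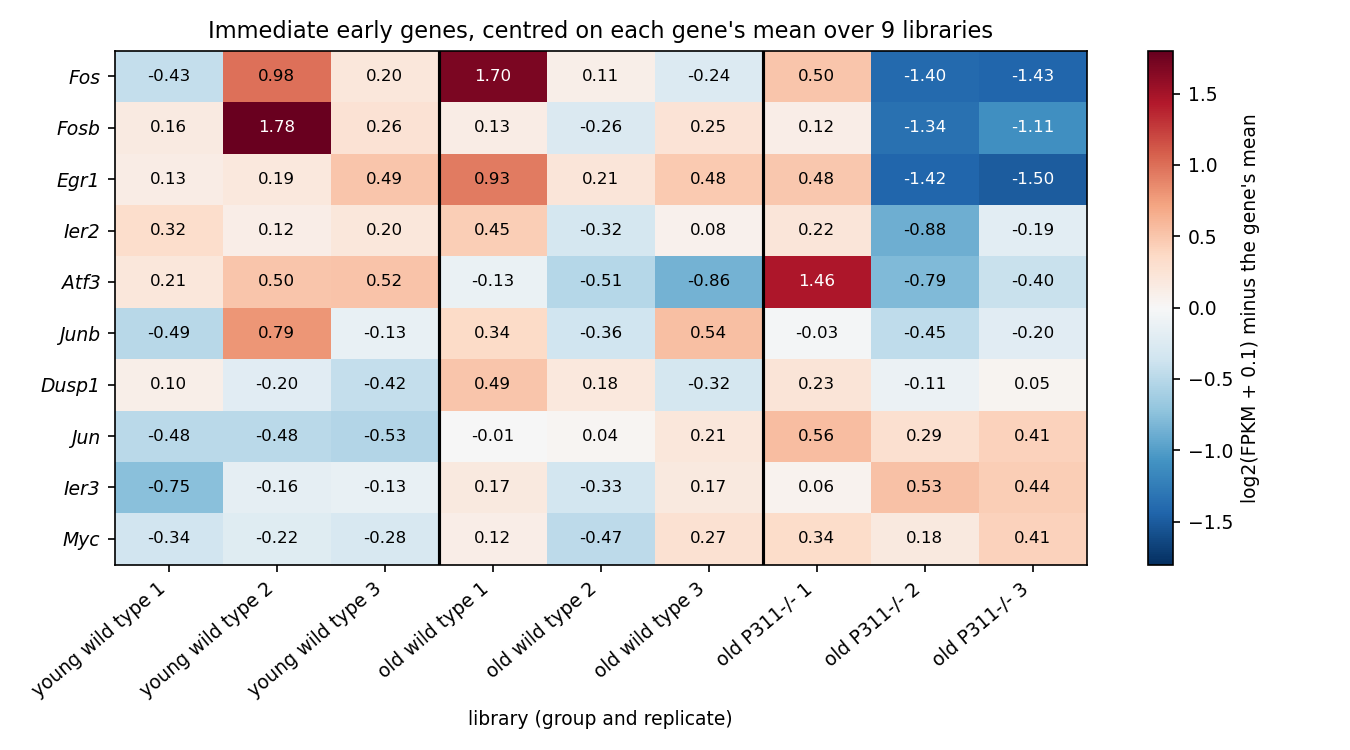
Log2 of FPKM plus 0.1 of each immediate early gene (rows) minus its own mean over the 9 libraries (columns, by group), with the difference printed in each cell and as colour. P311-/- replicates 2 and 3 are lowest for Fos, Fosb and Egr1, and replicate 1 is highest for Atf3.

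The members did not move as 1 block. In P311-/- replicates 2 and 3, Fos, Fosb and Egr1 were below all 6 wild-type libraries, a pattern held by 1704 of 14233 genes tested (12.0%), while Jun, Ier3 and Myc had positive differences from both wild-type groups. Old wild-type replicate 1 held the highest value of 4 members (Fos, Egr1, Ier2 and Dusp1), and P311-/- replicates 2 and 3 and young replicates 1 and 3 each held the lowest value of 2. After centring each gene on its own mean over the 9 libraries, Ier3 and Myc lay on the same side of their means in all 9 libraries, with a root mean square difference of 0.217 on the log2 scale. Jun and Myc differed by 0.232 (same side in 7 libraries), Fos and Egr1 by 0.487 (7), and Fos and Jun by 1.16 (3). A root mean square difference also grows with how much both genes vary, so these pairs are not ranked by it. The root mean square of the centred values was 0.966 for Fos, 0.814 for Egr1, 0.387 for Jun and 0.311 for Myc. These points share library and depth, and the values are descriptions.

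The spread within groups was wider for most members than for a typical gene. The median within-group SD of log2 values was 0.440 for the members and 0.247 for all genes tested. Fos had an SD of 0.964, above that of 96.9% of genes tested, and Atf3, Fosb, Egr1 and Junb were above 93.7%, 93.2%, 92.7% and 83.8%. Jun had an SD of 0.104, above that of 5.52% of genes, and Myc one of 0.239, above that of 48.0%. In the P311-/- group the SD was 1.12 for Egr1, against 0.19 in young and 0.36 in old wild type.

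For old against young wild type, 1 of 10 members passed as higher (3.39% of all genes tested did) and 0 as lower (2.01%). Groups did not overlap for 1 member in the higher direction (Jun, 19.0% of all genes) and 1 in the lower (Atf3, 18.1%), so these member shares were near or below the background. The median log2 difference of the members was 0.26, against 0.00 for all genes tested, and 7 of 10 were above 0. Without P311-/- replicate 1 in the shared fit, 1 passed as higher (7.26%) and 1 as lower (5.07%).

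For old P311-/- against old wild type, 0 of 10 members passed as higher (0.0141% of all genes) and 0 as lower (0.0562%) with limma. An unadjusted p under 0.05 was reached by 2 members and by 16.1% of all genes. Voom on recovered reads called 0 members without library quality weights and 2 with them, where it called 4211 of 14233 genes. Groups did not overlap for 1 member, Jun, in the higher direction (8.64%) and for 0 in the lower (9.39%). The median difference was -0.21, against -0.00386 for all genes, and -0.33 without P311-/- replicate 1. In that fit 0 members passed as higher (6.97%) and 1, Egr1, as lower (6.20%). Groups then did not overlap for 2 members in the higher direction (Jun and Ier3, 25.0% of all genes) and 3 in the lower (Fos, Fosb and Egr1, 23.1%).

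For old P311-/- against young wild type, 1 of 10 passed as higher (Jun, 0.155% of all genes) and 0 as lower (0.246%). Groups did not overlap for 3 members in the higher direction (Jun, Ier3 and Myc, 11.6% of all genes) and 1 in the lower (Fosb, 12.0%). An unadjusted p under 0.05 was reached by 5 of 10 members and by 21.4% of all genes. Without P311-/- replicate 1, 2 passed as higher (Jun and Ier3, 10.3%) and 3 as lower (Fosb, Egr1 and Atf3, 9.22%). Groups then did not overlap for 3 in the higher direction (Jun, Ier3 and Myc, 27.7%) and 5 in the lower (Fos, Fosb, Egr1, Atf3 and Ier2, 24.8%). The median was -0.30 with and -0.56 without that library, against 0.01 and 0.02 for all genes. The comparisons share libraries, so their values stand side by side and are not independent of each other.

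**Figure D3:**
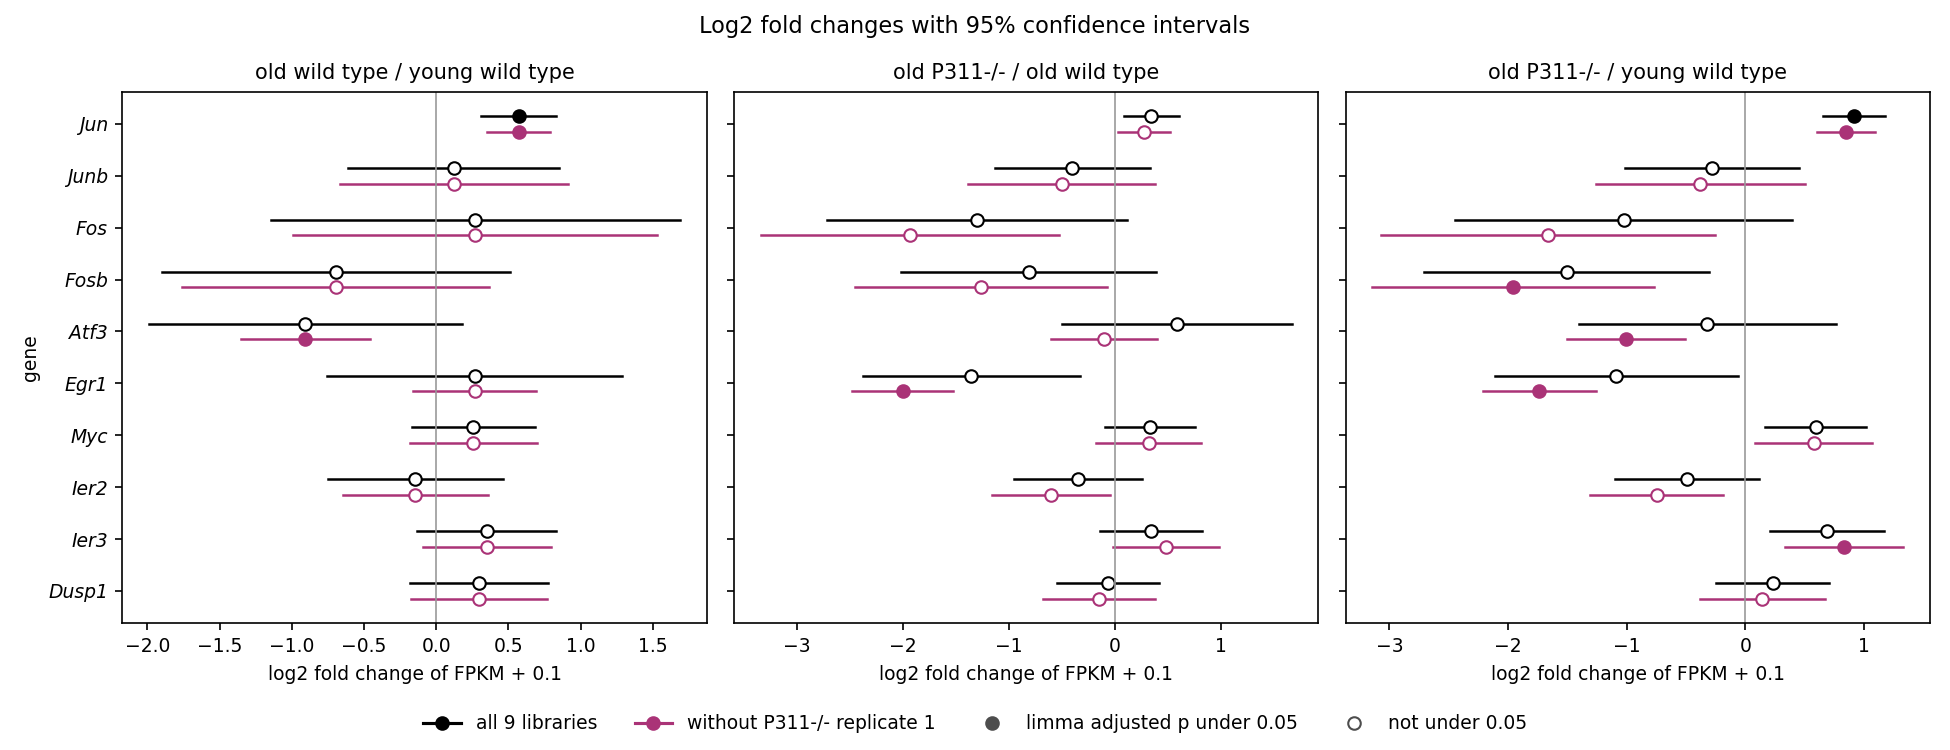
Log2 fold change (horizontal axis, FPKM plus 0.1) with its 95% interval for each immediate early gene in the 3 comparisons, with all 9 libraries in black and without P311-/- replicate 1 in purple; filled points have a limma adjusted p under 0.05. Jun has the shortest intervals, and Egr1 moves from -1.36 to -2.00 against old wild type, with a shorter interval, when that library is left out.

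Genes with related roles were read from 11 lists, by the calls of the same fit. The share of all genes tested that passed was 3.39% higher and 2.01% lower for old against young wild type, 0.0141% and 0.0562% for P311-/- against old wild type, and 0.155% and 0.246% for P311-/- against young. Leaving out P311-/- replicate 1 raised the shares for P311-/- to 6.97% and 6.20%, and to 10.3% and 9.22%. Among AP-1 relatives (12 of 13 tested), 0 passed in any comparison with all libraries, and without P311-/- replicate 1 it was 2 higher against old wild type and 0 against young. Mafk, a small MAF protein, had the smallest p, at a log2 difference of 0.80 for P311-/- against old wild type (adjusted p = 0.243; 1.01 and 0.0114 without P311-/- replicate 1). Of the other EGR and NR4A factors (7 of 8 tested), 0 passed with all libraries, and Nr4a1, an orphan nuclear receptor induced by exercise, stood at 0.62 in that comparison (0.253; 0.59 and 0.0942 without that library). Egr2 and Egr3, named after their values were seen as the relatives of Egr1, were -0.66 and -0.77 for P311-/- against young (0.367 and 0.395), and -1.12 and -1.39 without P311-/- replicate 1 (0.0409 and 0.0283). They were the 2 calls of the list in that fit, with 0 against old wild type. Both were low, at 0.864 to 1.07 FPKM (Egr2) and 0.733 to 0.839 FPKM (Egr3) in young libraries. P311-/- replicate 1 was above every young library, at 1.17 and 1.15 FPKM. Replicates 2 and 3 were below them, at 0.428 and 0.341 FPKM for Egr2 and 0.178 and 0.323 FPKM for Egr3.

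Of 15 KLF and other early transcription factors, 1 passed with all libraries. In the fit without P311-/- replicate 1, 5 were higher and 2 lower against old wild type, and 4 higher and 2 lower against young. Klf10, a factor induced by TGF-beta, was at 12.8, 13.2 and 12.4 FPKM in young wild type. It was at 10.9, 9.08 and 11.3 FPKM in old wild type and 5.18, 6.97 and 5.92 FPKM in old P311-/-. From young wild type to old P311-/- it fell by 1.09 on the log2 scale (adjusted p = 0.0178), also without P311-/- replicate 1 (-0.98, 0.00340). The call was lost without young replicate 1, 2 or 3 (0.0622, 0.101 and 0.0904) and without P311-/- replicate 3 (0.112), with the size between -1.06 and -1.11.

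Among early signalling and growth genes, MAP kinases and upstream kinases, 3 passed between young and old wild type. Of 21 early signalling and growth genes tested (of 24), 2 passed as lower (2.01% of all genes did) and 0 as higher: Pim1, a survival kinase, fell by 0.61 (adjusted p = 0.0367) from 9.54, 8.60 and 9.65 to 5.85, 5.51 and 6.82 FPKM, and Sik1, a kinase that restrains CREB coactivators, fell by 0.96 (0.0471). For P311-/- 0 of them passed with all libraries, and without its replicate 1 it was 3 higher and 1 lower against old wild type and 6 higher and 2 lower against young. Of 28 MAP kinases and upstream kinases tested (of 29), 1 passed, a share near that of all genes: Rps6ka1, a ribosomal S6 kinase downstream of ERK, fell by 0.65 (0.0472). For P311-/- the counts were 0 with all libraries, and 6 higher and 2 lower against old wild type and 5 higher and 2 lower against young without its replicate 1.

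Of 20 feedback phosphatases, Sprouty and decay factors, 0 passed with all libraries. Without P311-/- replicate 1, 2 were higher and 5 lower against old wild type, and 1 higher and 6 lower against young. Dusp5, a nuclear ERK phosphatase, was at -1.49 for P311-/- against young (0.0997; -1.89 and 0.00594 without P311-/- replicate 1). Of 14 SRF, TCF and CREB factors, 0 passed with all libraries, and 1 higher against old wild type and 1 lower against young without that library. Crtc1, a CREB coactivator, was at 0.65 for P311-/- against old wild type (0.253; 0.66 and 0.0790 without that library).

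Downstream genes were read in the same way. Of 13 MYC partners and antagonists tested (of 14), Mycbp rose by 0.80 (adjusted p = 0.0428) and Mxd4, which competes with MYC for MAX, fell by 0.54 (0.0491) from young to old wild type. For P311-/- 0 passed with all libraries, and 1 higher and 1 lower against each wild-type group without its replicate 1. Of 20 MYC target genes, Npm1, a nucleolar protein, rose by 0.46 (0.0498) and Cad, a pyrimidine synthesis enzyme, fell by 0.66 (0.0340) in the same comparison. Tfrc, the transferrin receptor, fell by 1.24 (0.0330; -1.43 and 0.00170 without P311-/- replicate 1) between young and P311-/-, from 95.1 to 106 FPKM down to 32.8 to 54.9 FPKM. Old wild type was at 79.3 to 96.4 FPKM. Tfrc was the 1 call of the list for P311-/-, against young. Without P311-/- replicate 1 there were 2 lower against old wild type and 2 higher and 3 lower against young.

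Of 21 AP-1 and EGR1 target genes tested (of 22), 0 passed with all libraries. Without P311-/- replicate 1, 4 were lower against old wild type and 6 against young, with 0 higher. Timp1, an inhibitor of matrix proteases, was at -1.35 for P311-/- against young (adjusted p = 0.0563; -1.60 and 0.00403 without P311-/- replicate 1). The median of this list in that comparison was -0.41, against 0.01 for all genes, and -0.62 without that library. Of 15 stress response genes listed with ATF3 that were tested (of 16), 0 passed with all libraries, and without P311-/- replicate 1 it was 1 higher against old wild type and 1 higher and 1 lower against young. Ddit4, an inhibitor of mTORC1 induced by stress, was at 1.51 for P311-/- against old wild type (0.175; 1.87 and 0.00265 without P311-/- replicate 1). The calls between young and old wild type depended on single libraries: without young replicate 3 or old wild-type replicate 2, 0 of 14233 genes passed, without young replicate 2 there was 1, and without old wild-type replicate 3 or young replicate 1 there were 10 and 14. Removing the trend with gene length and GC content left Npm1 at 0.01 (0.966), Cad at -0.30 (0.282) and Mxd4 at -0.23 (0.318). Without any 1 of the young replicates, or P311-/- replicate 2 or 3, Tfrc did not pass (0.0819 to 0.131), nor without old wild-type replicate 2 or 3 (0.0663 and 0.0591).

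Markers of cell types that use immediate early genes differed between the libraries. The summed level of 10 macrophage and monocyte markers was 1577, 1875 and 2432 FPKM in young wild type, 1894, 1319 and 1611 FPKM in old wild type, and 1735, 733 and 988 FPKM in old P311-/-. It was thus lowest in P311-/- replicates 2 and 3, the libraries with low Fos, Fosb and Egr1, and 6 of the 10 markers were below all wild-type libraries there (12.0% of all genes tested were). With all libraries 0 of the 10 were called lower against old wild type (0.0562% of all genes) or against young (0.246%). Without P311-/- replicate 1 it was 4 against old wild type (6.20% of all genes) and 6 against young (9.22%). That fit keeps only the 2 P311-/- libraries with these lowest sums. The 8 fibroblast and fibro-adipogenic progenitor markers summed to 1639 to 1758, 1142 to 1451 and 776 to 1372 FPKM in these groups, again lowest in P311-/- replicates 2 and 3. Endothelial markers (8) had their lowest sums in these libraries too, at 55.2 and 57.0 FPKM against 60.7 to 84.6 FPKM in the other 7. So did T and natural killer cell markers (7), at 4.41 and 7.22 FPKM against 7.43 to 17.1 FPKM, with the highest sum in P311-/- replicate 1, the library of highest Atf3. Gene by gene, 3 of 8 fibroblast, 2 of 8 endothelial and 2 of 7 T and natural killer cell markers were below all wild-type libraries in both, so most were not. A sum is weighted to its most abundant genes. The part of these cells in the low levels of Fos, Fosb and Egr1 was not tested.

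The sums were 58.7 to 74.3, 49.5 to 63.1 and 55.4 to 60.8 FPKM for 8 muscle stem cell markers in young wild type, then old wild type, then P311-/-. Of 8 neutrophil markers, 4 passed the filters on low values, and Ly6g was at 0 in every library. The 8 summed to only 8.20 to 18.2, 9.94 to 30.5 and 9.12 to 18.8 FPKM. The highest sum was in old wild-type replicate 1, where Fos was also highest. Red blood cell markers (5) were highest in the same library, at 971 FPKM, and next in P311-/- replicate 1, at 836 FPKM, against 146 to 370 FPKM in the other 7.

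Mast cell markers (6) summed to 36.3 to 57.1, 68.4 to 97.4 and 74.4 to 111 FPKM, higher in all old libraries than in all young ones, as was Jun. The 10 mature fibre markers did the same, at 45613 to 49516, 51930 to 63210 and 51755 to 63845 FPKM. Smooth muscle and pericyte markers (6) were at 106 to 132, 99.3 to 161 and 91.9 to 133 FPKM. The mitochondrial share of reads was 8.79 to 10.7%, 13.2 to 17.6% and 9.47 to 14.1%, again from young through old wild type to P311-/-. The part of any of these in the differences of the members was not tested.

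**Figure D4:**
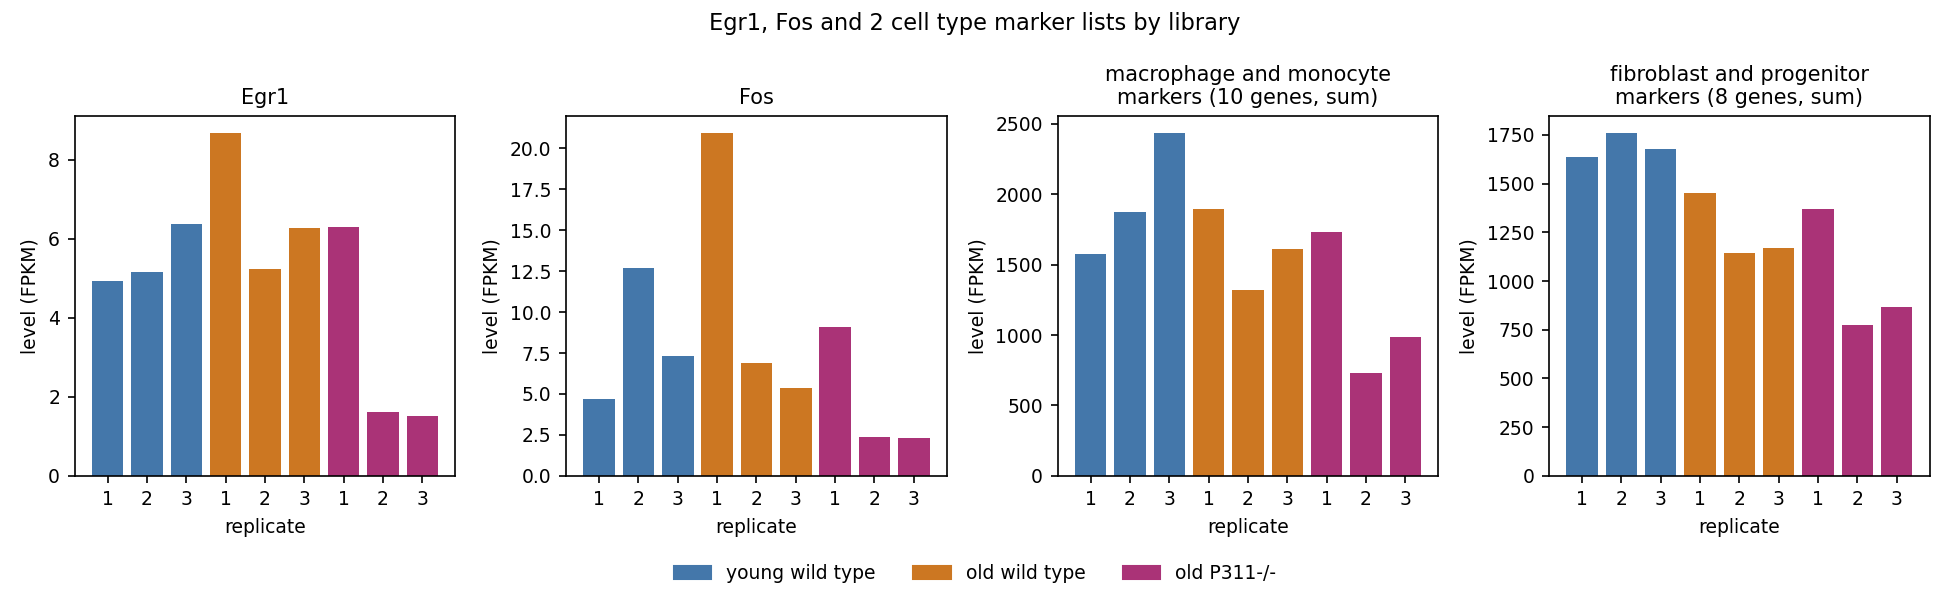
FPKM of Egr1 and Fos, and summed FPKM of 10 macrophage and monocyte markers and of 8 fibroblast and progenitor markers, with 1 bar per library coloured by group and vertical axes from 0. P311-/- replicates 2 and 3 have the lowest value in all 4 panels, with macrophage sums of 733 and 988 FPKM.

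For 5 members, the genes with the most similar pattern were sought among 10900 genes by the root mean square difference of centred log2 values over the 9 libraries. For Jun they were Sncg (0.165), Cirbp (0.167), Clcc1 (0.169) and Tmem71 (0.178), and for Myc Ngdn (0.118), Zscan21 (0.126), Znhit6 (0.137) and Zdhhc24 (0.139). For Egr1 they were Actc1 (0.184), Clec4a3 (0.244), Ptgr1 (0.264) and Lair1 (0.276). For Atf3 they were Trim30a (0.262), Slfn8 (0.279), Rtp4 (0.281) and Cmpk2 (0.281). For Fos they were Ccl7 (0.395), BC147527 (0.398), Ms4a4c (0.423) and Fcgr4 (0.428). These differences grow with how much the member varies and are not compared between members. The root mean square of its own centred values was 0.966 for Fos, 0.814 for Egr1, 0.706 for Atf3, 0.387 for Jun and 0.311 for Myc. The median difference of all genes compared was 1.01, 0.858, 0.759, 0.450 and 0.396 in that order.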

How the data were processed

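The deposited values were FPKM for 54532 genes in 9 libraries, with gene length in bases given in another column of the deposited table, both used as the authors gave them. Per the submitters' processing notes, HISAT2 2.2.1, featureCounts 2.1.1 and DESeq2 1.42.0 are listed, with no role given, and mm39 was named as the build; per the labels' protocols, RNA was polyA selected and strand marking was optional, so whether counting used strand is not known. Positions are on GRCm38: the deposited start and end equalled those of GENCODE M21 for 53585 of 54495 shared identifiers (98.3%). Each FPKM times gene length and 1 constant per library gave whole reads within 0.001 for 100% of values. These served for depth, the filter and the voom alternatives.

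Groups were compared with limma 3.58.1 (R 4.3.3), using trend and robust moderation. Values entered as log2(FPKM + 0.1), and this pseudocount understates changes of low genes. All 9 libraries entered 1 fit. Genes needed 0.5 FPKM and 10 recovered reads in at least 3 libraries each, which left 14233. P-values were adjusted by the Benjamini-Hochberg method over all of them, in each of 3 comparisons, and an adjusted p under 0.05 was a call. An exact permutation test of 3 against 3 libraries cannot give a p below 0.1 and was not used. SD is over the libraries of a group and SE is that of the log2 difference. Motifs were searched in RefSeq sequences.

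The members, the 11 gene lists and the 10 marker lists were chosen with earlier results of these data known. Named were all members, Nrep and, per list and comparison, up to 3 genes per direction with the smallest p among calls, or, for a list with no call, the 1 gene with the smallest p. The genes most like Fos, Jun, Egr1, Atf3 and Myc were the 4 with the smallest root mean square difference, at a mean of at least 1 FPKM and with no Gm or Rik symbol. Alternatives were 11 other settings and leaving out each of the 9 libraries.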

Additional observations from a re-analysis of the deposited data

How the results depend on the processing

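Replicate numbers are shared across groups, but same-numbered libraries did not deviate together: correlations of their deviations from the group means were -0.101 to 0.145, so the numbers are not taken as pairs. With the replicate block, genes called numbered 0 for old against young wild type (3386 at an unadjusted p under 0.05), 4 for P311-/- against old wild type and 5 for P311-/- against young, in place of 768, 10 and 57, and members called numbered 0, 0 and 0 in place of 1, 0 and 1, with Jun at adjusted p = 0.0759 and 0.0757. In that order of comparisons, the fit of 6 libraries called 1653, 6 and 12 genes, with 2, 0 and 0 members. Total-count scaling called 346, 9 and 34 genes, with 0 members in each, moved the median of all genes to -0.12 and -0.13 against young, and left 27.7% of calls between young and old wild type as higher, against 62.8%. Voom with library weights called 3001, 4211 and 4422 genes, with 2, 2 and 6 members. It gave P311-/- replicates 1, 2 and 3 weights of 0.213, 0.683 and 2.88, so replicate 3 counted most in that group. Plain voom called 139 genes in the last comparison. No filter called 5 and 23 genes against young, with 0 members for old wild type. Removing the trend with length and GC called 17 genes and 0 members between young and old wild type, and limma without trend 309 and 0. The stricter filter called 6 genes for P311-/- against old wild type and did not test Fosb, and a pseudocount of 1 called 87 for P311-/- against young. Leaving out each library in turn gave 0 to 1755, 4 to 1875 and 4 to 2785 genes, and 0 to 2, 0 to 1 and 0 to 5 members, the highest counts each without P311-/- replicate 1.

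Over all members, comparisons and alternatives, 553 of 597 values kept their direction and side of the threshold, 18 lost the call, 15 gained one and 11 changed sign. For old against young wild type, Fos was at -0.07 without young replicate 1 and -0.32 without old wild-type replicate 1, Junb at -0.0107 with total-count scaling, -0.15 without young replicate 1 and -0.06 without old wild-type replicate 3, and Ier2 at 0.0499 without old wild-type replicate 2. For P311-/- against old wild type, Atf3 was at -0.10 without P311-/- replicate 1, and Dusp1 at 0.12 without old wild-type replicate 1 and 0.02 without P311-/- replicate 2. For P311-/- against young, Junb was at 0.0861 without young replicate 2 and Atf3 at 0.12 without P311-/- replicate 2. Over the fits that leave out 1 library, the ranges were -0.32 to 0.65 (Fos), -0.15 to 0.49 (Junb) and -0.33 to 0.0499 (Ier2) in the first comparison, -0.10 to 1.02 (Atf3) and -0.28 to 0.12 (Dusp1) in the second, and -0.55 to 0.0861 (Junb) and -1.01 to 0.12 (Atf3) in the third. The cause was not tested. Depth limits Fosb, with 12 to 178 reads, most.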
